A study of Homo sapiens with 20 samples.

Results

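Live cells of a probiotic strain were compared here with the cell-free culture supernatant of the same strain, in 12 of the 20 expression arrays of the series, chosen by their labels as the co-cultures and supernatants of the 3 probiotic strains. All arrays measured RNA of Caco-2, a line from a human colon tumour whose cells come to resemble absorptive cells of the small intestine, here differentiated on inserts by a short protocol. In the live-cell groups the bacteria were washed and left on the cells for 8 h, at 20 to 100 bacteria to each Caco-2 cell. The strains were NCFM, a Lactobacillus acidophilus, B. lactis 420, a Bifidobacterium, and Ls-33, a Lactobacillus salivarius. In the supernatant groups, the sterile-filtered supernatant of the same strain was added at 10% of the medium volume for 24 h. Each of these 6 groups had 2 arrays, and 2 arrays of cells in medium alone for 8 h are given beside them. The E. coli supernatant arrays and the 24 h medium arrays run with them were not used here. No antibiotic was in the medium when bacteria or supernatants were added, and 5 µg of RNA was labelled for each of the 14 arrays.

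Format and time cannot be told apart in this comparison, since every live-cell array was taken at 8 h and every supernatant array at 24 h. Every difference below therefore holds both, and the medium arrays given beside them are of 8 h only. The RNA comes from bulk cultures, in which fewer cells of a type and less RNA per cell cannot be told apart. No group with uninoculated bacterial broth was analysed here. The labels name the 2 arrays of a group as replicates and the series speaks of duplicates. They may come from 1 culture, and p-values then measure only the spread between arrays, which may be technical.

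Intestinal epithelial cells detect bacterial surface structures mainly through pattern recognition receptors that switch on the transcription factor NF-kB. NF-kB in turn raises chemokines, acute phase proteins and its own inhibitors. Live bacteria can also touch the apical membrane, use up nutrients and oxygen and acidify the medium as they grow, whereas a filtered supernatant carries only what they have released. The absorptive work of the enterocyte rests on brush border enzymes and carriers, on lipoprotein assembly for export of dietary fat and on uptake and recycling of bile acids.

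Values are log2 probe-set signals as the authors deposited them, and 1 unit is a 2-fold change. A difference is live cells minus supernatant of the same strain, averaged over the 3 strains unless a strain is named. A gene was called at a limma adjusted p under 0.05, taken over all 11865 genes tested. Median signal lay between 2.67 and 2.70 in the 14 arrays, and arrays of 1 group correlated across probe sets at r = 0.995 to 0.997. Beta-actin is read by a 3′ and a 5′ control probe set, whose gap grows as RNA degrades, and that gap was 1.27 ± 0.147 in live-cell arrays and 1.07 ± 0.0317 in supernatant arrays (SD, n = 6 each), with 0.802 and 0.878 in the medium arrays. The formats differed by 0.200, with a 2-sided exact permutation p of 0.0185 within strains, where the smallest possible p was 0.00926. The same measure for GAPDH differed by 0.072, with an exact p of 0.00926, so both moved with format, and their part in the results below was not tested.

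Caco-2 cells with live bacteria differed from cells with supernatant in 6634 of the genes measured (55.9%), most often by less than 2-fold. Averaged over the strains, 3640 genes (30.7% of those tested) were higher and 2994 (25.2%) lower with live cells, and 179 and 258 of them differed by at least 2-fold. Those past 2-fold included the fructose carrier SLC2A5, the lipoprotein genes APOA4 and MTTP and the bile acid exporter subunit SLC51A on the lower side. On the higher side stood the scavenger receptor gene OLR1 and the host transcript of the microRNA miR-146a. Taken alone, NCFM gave 4360 called genes (36.7%), B. lactis 420 gave 4490 (37.8%) and Ls-33 gave 3907 (32.9%). All 3 strains called 1055 genes higher (8.89%) and 1094 lower (9.22%). Across genes the differences of 2 strains, which share no array, correlated at r = 0.805 for NCFM and B. lactis 420, 0.724 for NCFM and Ls-33 and 0.825 for B. lactis 420 and Ls-33. Genes are not independent replicates, so these values describe the arrays. The median difference over all genes was 0.02. In 3319 genes (28.0%) the 6 live-cell arrays did not overlap the 6 supernatant arrays, with 1740 higher (14.7%) and 1579 lower (13.3%).

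In a principal component analysis of the 12 arrays, the first component held 62.4% of the variance and separated the formats without overlap. The second held 11.7% and spread the live-cell arrays by strain, with NCFM at one end, Ls-33 at the other and B. lactis 420 near 0. Supernatant arrays of all strains stayed close together on it.

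**Figure D1:**
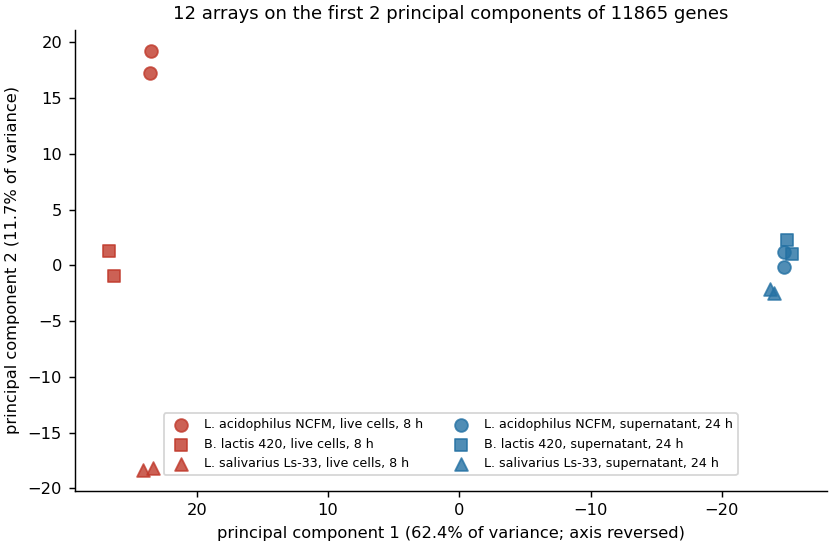
Each point is 1 array, placed by its first (x axis, reversed) and second (y axis) principal component over 11865 genes, with live cells in red and supernatants in blue and 1 marker shape per strain. The 6 live-cell arrays lie far from the 6 supernatant arrays along the first component and fan out by strain along the second, where the supernatant arrays lie close together.

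Medium alone lay nearer to the supernatants than to the live cells for most of the strongly different genes. Among the 437 genes called with at least a 2-fold difference, the live-cell mean was farther from the 8 h medium mean in 388 (88.8%) and the supernatant mean in 49. The median distance from medium was 1.22 for live cells and 0.279 for supernatants. Both distances share the 2 medium arrays, and the medium mean lay between the formats in 292 genes. The medium arrays were taken at the time of the co-cultures, not of the supernatants.

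Brush border genes were lower with live cells almost throughout. SLC2A5 (probe set 204430_s_at), the fructose transporter of the apical membrane, had a signal of 3.78 to 4.63 (median 4.45) in live-cell arrays, against 9.24 to 9.72 (median 9.5) in supernatant arrays and 9.0 and 9.15 in medium. No live-cell array came near a supernatant array, and the difference of -5.11 ± 0.114 (SE, adjusted p = 1.65e-16) was 34.6-fold lower and the largest in either direction among the genes tested. The strains gave nearly equal values, -5.06 for NCFM, -5.12 for B. lactis 420 and -5.15 for Ls-33. AQP10, a channel for water and glycerol, read 6.09 to 6.96 (median 6.66) with live cells and 10.31 to 10.45 (median 10.39) with supernatants, a difference of -3.75 ± 0.069 (SE, adjusted p = 9.77e-18). SLC3A1, a subunit of the cystine and dibasic amino acid carrier, read 7.80 to 8.55 (median 8.16) against 10.30 to 10.42 (median 10.35), and PDZK1, a scaffold that holds carriers at the brush border, 5.35 to 6.49 (median 6.20) against 8.36 to 8.64 (median 8.50). Neither gene's formats overlapped, and the differences were -2.17 ± 0.046 (SE, adjusted p = 8e-17) and -2.48 ± 0.066 (SE, adjusted p = 1.83e-15). Of 33 listed brush border genes 25 were measured. Of these, 20 were lower and 2 higher, against 25.2% and 30.7% over all genes tested. The median difference was -0.72 (0.02 over all genes). The 2 that were higher were SI, the sucrase-isomaltase gene, at 1.01, and the glutamate carrier SLC1A1 at 0.25. The peptidases ANPEP (-1.63), MEP1A (-1.15) and DPP4 (-0.72), lactase (LCT, -1.22) and the peptide carrier SLC15A1 (-0.91) were among the lower ones.

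Genes of bile acid handling were lower as well. SLC51A (probe set 229230_at), which with SLC51B forms the basolateral bile acid exporter, read 5.70 to 6.42 (median 6.17) with live cells, against 10.35 to 10.70 (median 10.49) with supernatants and 9.67 and 9.74 in medium. The difference was -4.38 ± 0.092 (SE, adjusted p = 6.24e-17), or 20.9-fold lower, and SLC51B differed by -0.92 ± 0.069 (SE, adjusted p = 3.33e-09). Of 14 listed genes 9 were measured and all 9 were lower, against 25.2% of all genes tested. Their median was -0.60, and none was higher at an unadjusted p under 0.05 either. They included the sterol hydroxylase gene CYP27A1 (-1.07), the efflux pump genes ABCC3 (-0.95) and ABCC2 (-0.60) and the hormone gene FGF19 (-0.53). Of the other probe sets of ABCC3, 2 were also called lower (-0.42 and -0.32) and 1 gave -0.06 and was not called.

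Lipoprotein assembly followed the same direction. APOA4, an apolipoprotein of chylomicrons, read 9.09 to 9.59 (median 9.35) with live cells and 12.73 to 12.82 (median 12.81) with supernatants, with 12.11 and 12.11 in medium. The formats lay far apart, and the difference was -3.44 ± 0.035 (SE, adjusted p = 2.25e-21), or 10.9-fold lower. MTTP, which loads lipid onto apolipoprotein B, read 5.22 to 5.86 (median 5.55) against 8.33 to 8.67 (median 8.54), a difference of -2.99 ± 0.082 (SE, adjusted p = 2.6e-15). APOC3 differed by -1.65 and APOB, the structural protein of chylomicrons, by -1.49. Of 27 listed genes 22 were measured, 17 of them lower and 1, DGAT2 (0.47), higher, with a median of -0.55. The shares over all genes tested were 25.2% lower and 30.7% higher. The cholesterol uptake gene NPC1L1 (-0.82), the lipid droplet gene CIDEB (-1.81) and the sterol esterifying SOAT2 (-1.77) were lower too. Fatty acid oxidation genes were mixed, with 9 of 18 measured lower and 3 higher (ACADVL 0.78, UCP2 0.30 and ACAA1 0.29). The lower ones included the acyl-CoA synthetase gene ACSL5 (-1.80) and PPARA (-1.55), a nuclear receptor for fatty acids.

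Most enterocyte markers gave strong signal in both formats, though FABP2 (2.86 to 3.64 with live cells, 2.82 to 3.40 with supernatants) and APOA1 (2.85 to 3.19 and 3.17 to 3.92) lay near the floor of the filter, 2.74 on the log2 scale, and CDX1 below it. Of 16 enterocyte markers 14 were measured. Of these, 9 were lower and 3 higher with live cells, against 25.2% and 30.7% over all genes tested. The signal of the 15 with a named probe set was summed, as log2 of summed linear values. That sum ran from 15.79 to 15.95 in live-cell arrays and from 16.06 to 16.09 in supernatant arrays, with 15.94 and 15.98 in medium. That shift moved with format, and its part in the brush border result was not tested. Villin (VIL1) read 11.94 to 12.12 with live cells and 12.40 to 12.47 with supernatants, and the 3 higher ones were SI and the keratins KRT8 (0.58) and KRT18 (0.56). Markers of goblet, Paneth, enteroendocrine and stem cells summed to 12.46 to 12.60 with live cells and 12.67 to 12.90 with supernatants, with 12.51 and 12.52 in medium. That sum is nearly AGR2 alone, at 12.43 to 12.57 and 12.65 to 12.88, and no other member read above 5.03. Only 7 of 17 reached the floor, and the goblet mucin gene MUC2 did not in either format. Of the 7, AGR2 (-0.27) and SPINK4 (-0.30) were lower, and the stem cell marker LGR5 was higher, at 3.37 to 4.25 against 2.15 to 2.96. The supernatant values of LGR5 lay on both sides of the floor, with 2.65 and 2.86 in medium. Its difference is thus measured against signal near background. Of 21 fibroblast, endothelial and leukocyte markers 10 reached the floor. The sum over the 19 with a named probe set ran from 12.32 to 12.57 and from 12.54 to 12.69. It was carried mostly by the collagen gene COL1A1 (11.22 to 11.43 and 11.03 to 11.19), LUM (10.97 to 11.37 and 11.36 to 11.61) and PECAM1 (8.77 to 8.98 and 8.93 to 9.18). Of the 10, 6 were lower and COL1A1 was higher (0.26), while PTPRC, KDR and CDH5 lay below the floor. CD3D, named as a T cell marker, was nevertheless read at 6.09 to 6.67 (median 6.44) with live cells and 8.48 to 8.61 (median 8.57) with supernatants, and CD3E was below the floor.

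Genes with the largest differences outside these groups included several with roles in signalling and metabolism. LGALS14, a galectin gene, read 5.14 to 6.35 (median 5.99) with live cells and 10.31 to 10.44 (median 10.36) with supernatants, a difference of -4.51 ± 0.073 (SE, adjusted p = 1.56e-18). TNFSF10, which encodes the death ligand TRAIL, read 2.80 to 3.43 (median 3.23) against 7.27 to 7.58 (median 7.37), with a difference of -4.23 ± 0.12 (SE, adjusted p = 3.97e-15). ARG1, the urea cycle arginase, read 2.56 to 3.32 (median 3.09) against 6.4 to 6.95 (median 6.80). None of the 3 overlapped between formats, as the rule that picked the largest differences required. The live-cell arrays of TNFSF10 and ARG1 lay close to the floor of the filter. Large differences were also seen for the focal adhesion gene TNS1 (-3.61), C16orf54 (-3.27), LOX (-3.21), which crosslinks collagen, and the endopeptidase gene PHEX (-2.99). Of the other probe sets of TNS1, 2 were also called lower (-1.81 and -1.35) and 1 gave -0.16 and was not called.

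**Figure D2:**
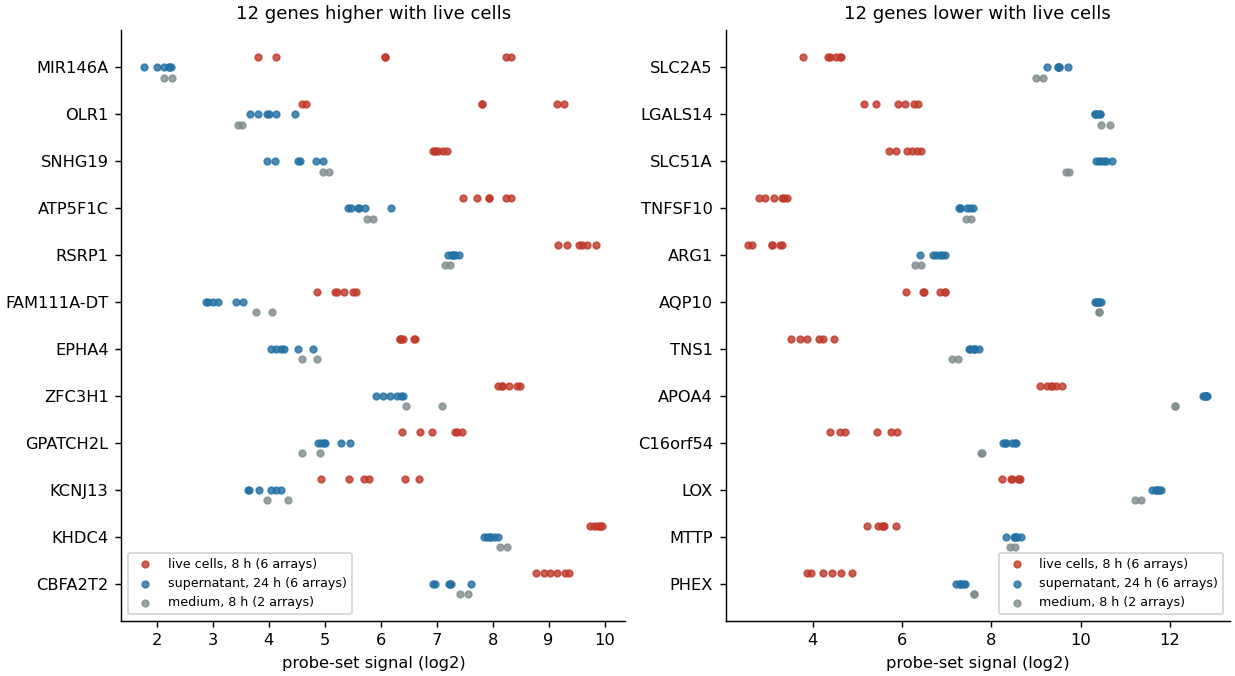
Each row is a gene and each point 1 array, with log2 probe-set signal on the x axis, live cells (red) above supernatant (blue) and 8 h medium (grey). The 12 genes with the largest higher and the 12 with the largest lower differences are shown, chosen among genes whose formats do not overlap. Medium lies beside the supernatant arrays in most rows, and MIR146A and OLR1 spread most among live-cell arrays.

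On the higher side, transcripts tied to RNA processing were prominent. SNHG19, a host gene of small nucleolar RNAs, read 6.94 to 7.19 (median 7.0) with live cells and 3.97 to 4.97 (median 4.54) with supernatants, a difference of 2.54 ± 0.137 (SE, adjusted p = 3.39e-11). RSRP1, an arginine- and serine-rich protein gene, read 9.17 to 9.85 (median 9.57) against 7.21 to 7.40 (median 7.29), a difference of 2.23 ± 0.054 (SE, adjusted p = 5.93e-16). KHDC4 (1.90), a KH-domain gene linked to splicing, and ZFC3H1 (2.07), a partner of the nuclear exosome that degrades RNA, were also higher. The formats of all 4 did not overlap, as the rule that picked the largest differences required. Over all genes tested 30.7% were higher and 25.2% lower. Of 33 listed snoRNA host genes and splicing regulators 22 were measured. Of these, 18 were higher and 2, SRSF6 (-0.26) and SRSF3 (-0.09), lower, with a median of 0.47. LUC7L3 (1.75), the kinase gene CLK1 (1.16), which phosphorylates splicing factors, and SRSF7 (0.91) were among those higher.

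For several other leading genes the size, or the call, depended on the probe set. ATP5F1C, the gamma subunit of ATP synthase, read 7.47 to 8.32 (median 7.93) with live cells and 5.41 to 6.19 (median 5.61) with supernatants on its representative probe set, a difference of 2.27 ± 0.107 (SE, adjusted p = 5.01e-12). Its 3 other probe sets gave 0.004 to 0.012, none of them called. Those 3 are of the cross-hybridising design (_x_at) and averaged 12.2 to 12.4, far brighter than the representative one. GPATCH2L differed by 1.93 on its representative probe set by 0.68 and 0.67, both called, on 2 others, and by -0.18, -0.07 and -0.09, uncalled, on 3 more. CBFA2T2, a transcriptional corepressor gene, differed by 1.89, with 0.40, 0.28 and 0.65, all called, on 3 other probe sets and 0.04, uncalled, on another. Over the whole array, 2616 genes had at least 2 called probe sets, and in 360 of them (13.8%) these went in opposite directions. The remaining leading genes were FAM111A-DT (2.14), a divergent noncoding transcript, the ephrin receptor gene EPHA4 (2.11) and the potassium channel gene KCNJ13 (1.91). Other probe sets gave 0.72, 0.60 and 1.1 for EPHA4 and 2.25 for KCNJ13, all called.

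Ribosome production stood on the higher side too. Of 36 listed genes of ribosome biogenesis and RNA polymerase I, 32 were measured. Of these, 25 were higher and 2, TAF1B (-0.22) and RRN3 (-0.17), lower, with a median of 0.39. All genes tested gave 30.7% higher and 25.2% lower. TAF1D, a subunit of the factor that recruits RNA polymerase I, read 8.26 to 9.01 (median 8.66) with live cells and 6.81 to 7.20 (median 7.02) with supernatants, a difference of 1.63 ± 0.078 (SE, adjusted p = 6.1e-12). TAF1A, of the same complex, differed by 1.71, the rRNA methyltransferase gene NOP2 by 0.90 and NHP2, a core protein of small nucleolar particles, by 0.79. Among 34 measured cytosolic ribosomal proteins of 50 listed, 27 were higher and 1, RPL22 (-0.16), lower, but the median was only 0.09, and 13 were higher when eBayes was fitted without a trend. NCFM alone and B. lactis 420 alone each gave 20 higher, and Ls-33 gave 11. Over all genes tested the higher shares were 18.6%, 22.1% and 16.7% in that order. RPL12 differed by 0.25 and RPS9 by 0.21, and for both the medium arrays lay among the live-cell arrays. RPL12 read 13.02 and 13.03 in medium, 12.93 to 13.11 with live cells and 12.71 to 12.85 with supernatants. RPS9 read 12.30 and 12.28 in medium, 12.21 to 12.32 with live cells and 12.03 to 12.09 with supernatants.

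Chaperones of the cytosol and of the endoplasmic reticulum went opposite ways. Over all genes tested 30.7% were higher and 25.2% lower. Of 20 measured heat shock chaperones of 25 listed, 15 were higher and 1, HSPB8 (-0.78), lower, with a median of 0.19. HSPH1, a partner of HSP70, read 9.22 to 9.56 (median 9.48) with live cells and 8.30 to 8.50 (median 8.39) with supernatants, a difference of 1.04 ± 0.055 (SE, adjusted p = 2.79e-11), and CHORDC1, a cochaperone of HSP90, differed by 0.68. Of 24 measured genes of the unfolded protein response, 18 were lower and 2, XBP1 (0.24) and SEC61B (0.10), higher, with a median of -0.35. HERPUD1, which serves degradation of misfolded proteins, read 9.87 to 10.32 (median 10.19) against 11.28 to 11.41 (median 11.32), a difference of -1.20 ± 0.034 (SE, adjusted p = 3.76e-15), and the major chaperone HSPA5 differed by -0.52. CALR differed by -0.99 on its representative probe set but by 0.36 and 0.45, both called, on 2 others, so its direction depends on the probe set. Targets of the stress factor ATF4 were lower in 13 of 26 measured, against 25.2% of all genes tested. They were higher in 4 (SLC7A5 0.51, SHMT2 0.36, WARS1 0.27 and ASNS 0.17), and 8 were lower when Ls-33 was left out. The pseudokinase gene TRIB3 differed by -2.00 ± 0.057 (SE, adjusted p = 4.46e-15) and ATF4 itself by -0.50.

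Immediate early genes, which growth factors and stress switch on within minutes, were lower with live cells. EGR1, a zinc finger transcription factor, read 10.31 to 10.77 (median 10.62) with live cells and 12.61 to 12.73 (median 12.70) with supernatants, with 12.54 and 12.49 in medium. The formats did not overlap, and the difference was -2.11 ± 0.036 (SE, adjusted p = 3.52e-18). DUSP1, a phosphatase that turns off MAP kinases, read 8.61 to 8.80 (median 8.75) against 9.97 to 10.14 (median 10.05), with 9.41 and 9.36 in medium, a difference of -1.33 ± 0.039 (SE, adjusted p = 5.24e-15). The shares over all genes tested were 25.2% lower and 30.7% higher. Of 33 listed genes 26 were measured, 19 lower and 0 higher by limma, with none higher at an unadjusted p under 0.05, and a median of -0.43. FOS (-1.0), IER2 (-1.0), DUSP6 (-0.96), MYC (-0.48) and JUN (-0.19) were among them. With NCFM left out, 1 member was higher.

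Genes raised by low oxygen, together with glycolysis, were lower in nearly every case. Of 39 listed genes 37 were measured, of which 32 were lower and 1, PFKFB3 (0.17), higher, with a median of -0.50. All genes tested gave 25.2% lower and 30.7% higher. NDRG1, a widely used readout of hypoxia, read 10.21 to 10.30 (median 10.23) with live cells and 11.46 to 11.66 (median 11.62) with supernatants, with 11.56 and 11.59 in medium. P4HA1, which hydroxylates collagen, read 11.54 to 11.73 (median 11.66) against 12.69 to 12.72 (median 12.70), with 12.64 and 12.64 in medium. In both genes the medium arrays lay beside the supernatant arrays and well above every live-cell array. Their differences were -1.36 ± 0.035 (SE, adjusted p = 1e-15) and -1.05 ± 0.025 (SE, adjusted p = 4.94e-16). ERO1A, an oxidase of disulfide formation, differed by -1.19 ± 0.034 (SE, adjusted p = 4.82e-15), and GPI, the glycolytic isomerase, by -1.20 ± 0.036 (SE, adjusted p = 8.25e-15). Glycolytic enzymes further down the pathway were lower by smaller amounts, such as ENO1 (-0.65), ALDOA (-0.55), LDHA (-0.50) and PGK1 (-0.46), and VEGFA (0.02) was not called.

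The HIF factors that drive such genes bind a short core, ACGTG. In the 250 bases before the annotated start, as given by RefSeq for GRCh38.p14, the core stood on either strand in 15 of the 29 promoters found for the 32 lower genes (51.7%), against 23.3% of 9696 tested genes with a promoter and 18.7% of all 27305 promoters. A match is a description and does not show binding. The list was drawn up as hypoxia and glycolysis genes, and its other members were not counted separately. The share therefore does not bear on the difference between formats. The promoters of the called members P4HA1, GPI and ERO1A are shown as examples of windows with 1 match, in capitals, each read 5′ to 3′ on the gene's own strand. The letters stand as ACGTG in GPI and as the reverse complement CACGT in P4HA1 and ERO1A.
P4HA1 (chr10:73096867-73097116, minus strand): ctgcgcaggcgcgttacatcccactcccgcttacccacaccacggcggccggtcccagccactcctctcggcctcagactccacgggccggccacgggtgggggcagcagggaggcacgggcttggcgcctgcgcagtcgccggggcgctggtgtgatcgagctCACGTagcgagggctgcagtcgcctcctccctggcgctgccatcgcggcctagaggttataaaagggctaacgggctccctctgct
GPI (chr19:34364742-34364991, plus strand): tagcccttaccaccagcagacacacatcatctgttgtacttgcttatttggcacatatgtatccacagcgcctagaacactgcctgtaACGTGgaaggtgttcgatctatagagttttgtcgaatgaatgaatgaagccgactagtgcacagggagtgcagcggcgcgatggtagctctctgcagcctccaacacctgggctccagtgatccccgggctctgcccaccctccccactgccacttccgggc
ERO1A (chr14:52695559-52695808, minus strand): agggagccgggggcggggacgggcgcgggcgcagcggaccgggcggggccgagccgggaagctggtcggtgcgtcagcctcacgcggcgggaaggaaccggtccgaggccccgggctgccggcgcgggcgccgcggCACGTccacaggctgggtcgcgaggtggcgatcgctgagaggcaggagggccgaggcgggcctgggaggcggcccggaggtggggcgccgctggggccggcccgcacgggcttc

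NF-kB targets and chemokines were mostly higher with live cells, and the interaction of strain and format, a test of whether the difference depends on the strain, was called for 12 of 22. CCL20 (probe set 205476_at), the chemokine that draws CCR6-bearing cells to the epithelium, read 9.67 and 9.46 with live NCFM, against 9.18 and 9.04 with its supernatant. With B. lactis 420 it read 12.24 and 12.35 against 9.62 and 9.52, and with Ls-33 12.08 and 12.16 against 9.99 and 10.09, with 9.53 and 9.52 in medium. Live-cell arrays lay above supernatant arrays of the same strain in each case, although NCFM live cells lay below the Ls-33 supernatant. The strain differences were 0.45, 2.72 and 2.09 in that order, with adjusted p-values of 0.000133, 1.13e-14 and 5.81e-13. TNFAIP3, the deubiquitinase that shuts off NF-kB signalling, differed by 0.46, 2.47 and 1.39. NFKBIZ, a nuclear cofactor of NF-kB, was higher with every strain, at 1.80, 1.95 and 1.35, with 10.05 to 10.57 (median 10.31) in live-cell arrays against 8.22 to 8.97 (median 8.61) in supernatant arrays.

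CXCL8, the neutrophil chemokine interleukin 8, read 2.38 and 2.53 with live NCFM against 2.59 and 2.63 with its supernatant, 4.30 and 4.92 against 2.69 and 2.97 with B. lactis 420 and 5.61 and 5.49 against 3.35 and 3.18 with Ls-33. All 4 NCFM arrays and 1 B. lactis 420 supernatant array of CXCL8 lay below the floor of the filter, so the NCFM values compare background with background. The differences with B. lactis 420 and Ls-33 were 1.78 and 2.29. NFKBIA, the classical inhibitor of NF-kB, was higher only with B. lactis 420 among the 3 tests (1.06, adjusted p = 5.26e-08), with 0.02 for NCFM and 0.10 for Ls-33, and the interaction of strain and format had an adjusted p of 5.7e-05. Without B. lactis 420 the average of NFKBIA was 0.06 and not called. Of 36 listed genes 34 had a named probe set and 22 passed the floor as a mean over both formats. Of these 22, 15 were higher and 3 lower (CXCL16 -1.87, IER3 -0.66 and LIF -0.46), with a median of 0.43. Averaged over the strains, all genes tested gave 30.7% higher and 25.2% lower. A gene with signal only with live cells can pass that floor, as CXCL10 did with every supernatant array below it. The count of higher members is therefore not independent of the filter. NCFM alone gave 6 higher and 5 lower, B. lactis 420 gave 14 and 2, and Ls-33 gave 13 and 2. The 5 lower with NCFM were CXCL16 (-2.09), ICAM1 (-1.31), IER3 (-1.05), IL32 (-0.72) and TNIP1 (-0.36). CXCL16 was lower with the other strains too, together with LIF (-0.60) for B. lactis 420 and IER3 (-0.76) for Ls-33. Over all genes the shares were 18.6% and 18.1% with NCFM, 22.1% and 15.8% with B. lactis 420 and 16.7% and 16.3% with Ls-33. With a filter at the 60th percentile fewer members were tested and 9 were higher.

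A consensus NF-kB site, searched by its standard degenerate letters on both strands, stood in the 250 bases before the start of 7 of the 13 promoters found for the 15 higher members (53.8%). It stood in 6.07% of the promoters of tested genes and 5.05% of all promoters. The list was drawn up as NF-kB targets and chemokines, and its other members were not counted separately. The share therefore does not bear on the difference between formats. The windows of CCL20, TNFAIP3 and CXCL10 are printed because their levels differed by strain, with each match in capitals, on the gene's strand of GRCh38.p14 from RefSeq. CCL20 held 1 match and the others 2 each. TNFAIP3 also held the ACGTG core and CXCL10 its reverse complement CACGT, both left in lower case.
CCL20 (chr2:227813592-227813841, plus strand): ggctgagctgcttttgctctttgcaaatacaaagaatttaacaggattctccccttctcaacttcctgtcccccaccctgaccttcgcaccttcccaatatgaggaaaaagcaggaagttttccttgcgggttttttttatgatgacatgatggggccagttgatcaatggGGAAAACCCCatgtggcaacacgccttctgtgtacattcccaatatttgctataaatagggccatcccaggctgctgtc
TNFAIP3 (chr6:137867009-137867258, plus strand): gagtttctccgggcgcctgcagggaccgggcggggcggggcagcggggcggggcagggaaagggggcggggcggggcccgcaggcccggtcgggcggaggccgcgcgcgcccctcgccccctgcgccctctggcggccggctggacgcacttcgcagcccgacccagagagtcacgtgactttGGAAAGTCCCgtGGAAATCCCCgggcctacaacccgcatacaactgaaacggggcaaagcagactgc
CXCL10 (chr4:76023498-76023747, minus strand): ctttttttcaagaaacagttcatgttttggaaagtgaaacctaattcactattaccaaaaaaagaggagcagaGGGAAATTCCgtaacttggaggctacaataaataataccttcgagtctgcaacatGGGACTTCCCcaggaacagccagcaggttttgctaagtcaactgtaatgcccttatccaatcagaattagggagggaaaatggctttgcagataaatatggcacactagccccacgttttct

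The host transcript of miR-146a, a microRNA that dampens Toll-like receptor signalling, had the largest higher difference of all genes tested. MIR146A (probe set 232504_at) read 4.14 and 3.82 with live NCFM, 8.24 and 8.32 with live B. lactis 420 and 6.08 and 6.08 with live Ls-33. The supernatants gave 2.26 and 2.13, 1.78 and 2.01 and 2.22 and 2.23 in the same strain order, and medium 2.28 and 2.14. Supernatant and medium arrays all lay below the floor of the filter, whereas every live-cell array lay above it, so the differences of 1.79, 6.38 and 3.86 are measured against signal near background. The average was 4.01 ± 0.099 (SE, adjusted p = 6.29e-16). The probe set reads the long transcript and not the mature microRNA, whose RefSeq sequence at chr5:160485372-160485393 on the plus strand of GRCh38.p14 is shown with its seed, bases 2 to 8, in capitals.
hsa-miR-146a-5p: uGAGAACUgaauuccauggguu

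Several acute phase and defence genes also differed least with NCFM, and most with Ls-33. PI3, the protease inhibitor elafin, read 5.07 and 4.86 with live NCFM against 4.56 and 4.15 with its supernatant, 8.18 and 8.30 against 4.58 and 4.33 with B. lactis 420 and 9.27 and 9.41 against 4.88 and 4.79 with Ls-33. C3, the central complement component, read 4.37 and 3.86 against 3.68 and 3.91, 7.19 and 7.41 against 3.83 and 4.2 and 8.14 and 8.10 against 4.73 and 4.69. Both genes were highest with live Ls-33, and C3 was not called with NCFM (0.32, adjusted p = 0.214). The fibrinogen chain FGB differed by 0.85, 1.33 and 2.72 and FGG by 0.77, 1.44 and 2.39, called with every strain. Of 30 listed genes 18 were measured, 10 higher and 2 lower (SERPINA1 -0.91 and the copper carrier CP -0.47), with a median of 0.32. Averaged over the strains, all genes tested gave 30.7% higher and 25.2% lower. With NCFM 5 were higher (FGB, FGG, FGA, PI3 and C4BPB) and 7 lower, SERPINA1 (-0.90) among them, with a median of -0.08. With B. lactis 420 there were 9 and 2, and with Ls-33 11 and 1. The lower ones were C1R and SERPINA1 with B. lactis 420, and SERPINA1 with Ls-33. Over all genes the higher and lower shares were 18.6% and 18.1% with NCFM. They were 22.1% and 15.8% with B. lactis 420 and 16.7% and 16.3% with Ls-33.

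Interferon-stimulated genes had no common direction. Of 24 measured genes 8 were higher and 9 lower, with a median of -0.01, against 30.7% higher and 25.2% lower over all genes tested. With a filter at the 60th percentile 4 were higher. OAS3, a sensor of double-stranded RNA, read 5.25 to 6.66 (median 6.15) with live cells and 4.36 to 4.94 (median 4.57) with supernatants, a difference of 1.43 ± 0.111 (SE, adjusted p = 5.38e-09). IFI27 read 3.19 to 4.53 (median 4.08) against 5.79 to 6.53 (median 6.18) and IFIT1 4.83 to 5.71 (median 5.11) against 5.85 to 6.75 (median 6.20), with differences of -2.18 ± 0.117 (SE, adjusted p = 3.43e-11) and -1.09 ± 0.099 (SE, adjusted p = 4.16e-08). The peptide transporter genes TAP1 (0.47) and TAP2 (0.44) were higher and the class I genes HLA-B (-0.18), HLA-C (-0.20) and HLA-E (-0.20) lower. Among genes of p53 response, caspases and death receptors, 8 of 25 measured were higher and 7 lower, near the shares over all genes tested. At the 60th percentile 4 were higher. The inflammatory caspases CASP5 (2.46) and CASP4 (1.25) were higher, and TNFRSF10B (-0.66), a TRAIL receptor, and the cell cycle inhibitor CDKN1A (-0.98) lower.

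Replication and mitosis genes differed in direction. Of 33 measured genes of replication and entry into S phase, 20 were higher and 2, CCND1 (-0.78) and RRM2 (-0.15), lower, with a median of 0.30. Over all genes tested 30.7% were higher and 25.2% lower. NCFM alone and B. lactis 420 alone each gave 16 higher, where 18.6% and 22.1% of all genes tested were higher. Ls-33 gave 6, with a median of 0.17, where 16.7% of all genes tested were higher. MCM7, of the replicative helicase, read 7.16 to 7.77 (median 7.53) with live cells and 6.53 to 6.98 (median 6.64) with supernatants, and MCM3 8.84 to 9.02 (median 8.94) against 8.33 to 8.48 (median 8.38). Their differences were 0.82 ± 0.084 (SE, adjusted p = 2.14e-07) and 0.55 ± 0.048 (SE, adjusted p = 2.61e-08). In medium MCM7 read 7.47 and 6.92 and MCM3 9.04 and 9.25, so medium lay above every live-cell array for MCM3. Of 35 measured mitosis genes 17 were lower and 2, BUB3 (0.39) and ECT2 (0.14), higher, with a median of -0.17. The mitotic kinases AURKA (-0.43), PLK1 (-0.57) and CDK1 (-0.29) and the cyclin CCNB2 (-0.57) were lower. Without Ls-33, 5 mitosis genes were higher.

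Other metabolic and stress lists were more mixed or differed by less. Over all genes tested, 25.2% were lower and 30.7% higher. Of 31 measured NRF2, metallothionein and AhR targets 16 were lower and 9 higher, with a median of -0.26. The AhR target CYP1A1 differed by -0.87 ± 0.031 (SE, adjusted p = 1.17e-13) and GCLC, the first enzyme of glutathione synthesis, by -0.87 ± 0.036 (SE, adjusted p = 9.65e-13), whereas the metallothionein MT2A (0.62) was higher. Of 36 measured respiratory chain subunits 20 were higher and 3, NDUFA9 (-0.20), SDHA (-0.16) and UQCRC1 (-0.09), lower, with a median of 0.08. NDUFA2 differed by 0.52 and ATP5MC1 by 1.21, and the 20 higher include ATP5F1C, called on its representative probe set only. That count was 12 without a trend and 13 without B. lactis 420. Cholesterol synthesis genes showed 6 lower and 3 higher of 17. INSIG1, which restrains the pathway, differed by -0.60, and IDI1 by 0.92 on its representative probe set but by -0.04 and -0.10 on others.

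Junction genes were more often lower. The shares over all genes tested were 25.2% lower and 30.7% higher. Of 22 measured tight and adherens junction genes 13 were lower and 3 higher (CGNL1 0.71, CLDN1 0.62 and CLDN12 0.14), with a median of -0.15. After quantile normalization, or without NCFM, 5 were higher. OCLN, the tight junction protein occludin, read 11.25 to 11.38 (median 11.33) with live cells and 11.52 to 11.64 (median 11.60) with supernatants, a difference of -0.27 ± 0.027 (SE, adjusted p = 1.59e-07). The scaffold TJP1 read 11.39 to 11.49 (median 11.43) against 11.36 to 11.49 (median 11.42) and was not called (0.01, adjusted p = 0.795), though another of its probe sets gave -0.32 and was called. MYLK, the kinase that contracts the junctional actin ring, differed by -1.72 ± 0.106 (SE, adjusted p = 2.01e-10). Of 27 measured genes of TGF-beta and BMP signalling and matrix, 16 were lower and 3 higher (ITGAV 0.55, TGFB1 0.51 and THBS1 0.22). PLAUR, the urokinase receptor, differed by -1.25 ± 0.069 (SE, adjusted p = 5.07e-11) and the BMP target ID2 by -0.71 ± 0.026 (SE, adjusted p = 1.81e-13). PTGS2, the inducible cyclooxygenase, was not called (0.11, adjusted p = 0.0947).

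Clock genes are given because the formats were sampled at different times. Of 14 measured, 2 were higher and 5 lower, and 7 were not called, against 30.7% higher and 25.2% lower over all genes tested. CRY1, a repressor of the clock, read 9.32 to 9.67 (median 9.52) with live cells and 8.66 to 8.89 (median 8.82) with supernatants, with 8.63 and 8.72 in medium, a difference of 0.69 ± 0.049 (SE, adjusted p = 1.55e-09). PER2, its partner, read 4.84 to 5.29 (median 5.06) against 5.46 to 6.12 (median 5.75), with 5.50 and 5.90 in medium, a difference of -0.71 ± 0.103 (SE, adjusted p = 1.32e-05). The others called were CRY2 (0.22), TEF (-0.66), BMAL1 (-0.22), NFIL3 (-0.21) and CSNK1D (-0.31, with 0.15 on another probe set), and DBP (-0.16, adjusted p = 0.233) was not called. NR1D1 and PER1 were not analysed here.

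**Figure D3:**
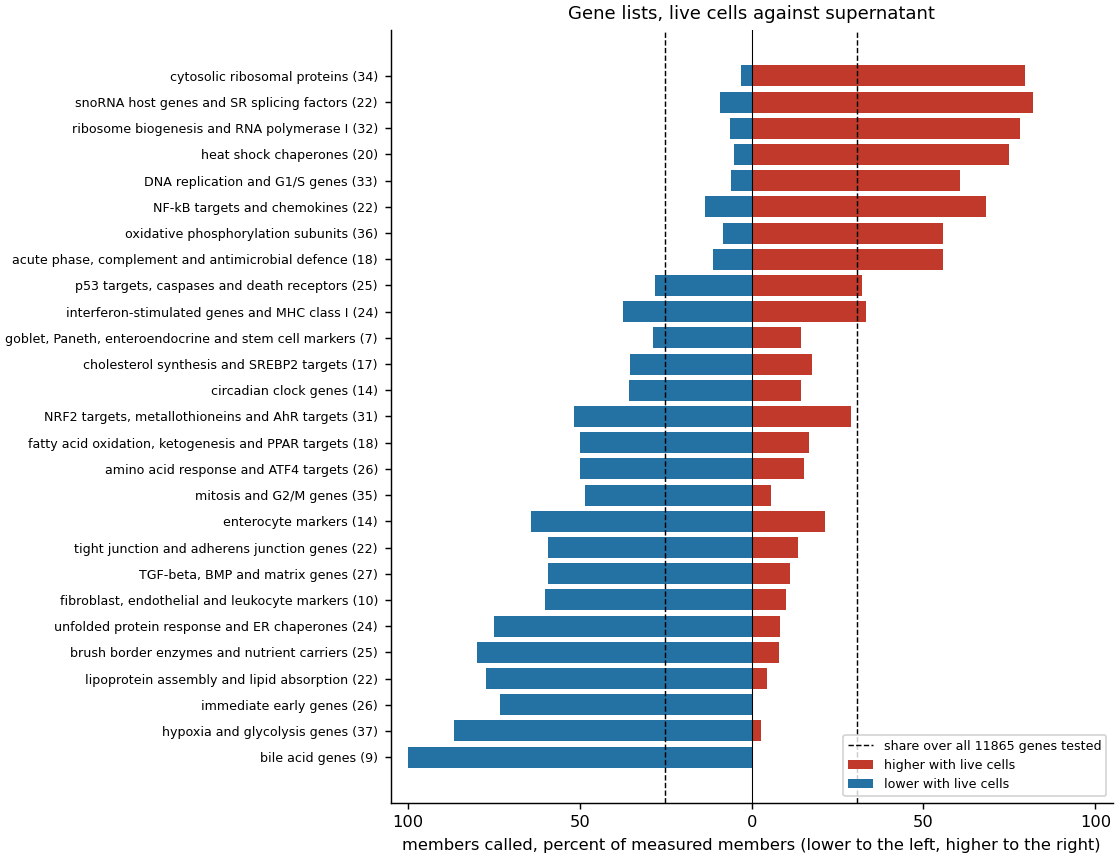
Bars give, for each of the 27 gene lists, the percent of its measured members (number in brackets) called higher (red, to the right) and lower (blue, to the left) with live cells against supernatants. Dashed lines mark the shares over all 11865 genes tested, 30.7% higher and 25.2% lower. Ribosomal, splicing and heat shock lists extend to the right, and bile acid, hypoxia and immediate early lists to the left.

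Whether the difference between live cells and supernatant depended on the strain was tested by the interaction of strain and format, which called 470 genes (3.96%). That count depended on single arrays. It was 310 and 277 without the first or second NCFM supernatant array, 253 and 250 without the first or second live Ls-33 array, and 233 and 245 without the first or second Ls-33 supernatant array. Without a trend in eBayes it was 150. In 433 of the 470 (92.1%) the 3 live-cell means were spread more widely than the 3 supernatant means, with median ranges of 0.62 and 0.168. The difference was highest with Ls-33 in 227 of them, with B. lactis 420 in 125 and with NCFM in 118. It was lowest with NCFM in 294, and B. lactis 420 lay between the lactobacilli in 317. Among lists the interaction was called for 12 of 22 NF-kB genes, 10 of 18 acute phase genes, 4 of 14 enterocyte markers, 7 of 25 genes of p53 and caspases, 6 of 27 of TGF-beta and matrix, 6 of 31 NRF2 and AhR targets, 4 of 24 of the unfolded protein response and 4 of 25 brush border genes. It was called for 4 of 37 hypoxia genes and 1 of 20 heat shock chaperones.

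CASP5, an inflammatory caspase, had the widest range of strain differences among called genes. It read 3.27 and 3.51 with live NCFM against 3.58 and 3.50 with its supernatant, 6.43 and 5.96 against 3.36 and 3.41 with B. lactis 420 and 8.33 and 8.26 against 3.65 and 3.50 with Ls-33. Only NCFM live cells overlapped the supernatants, and the 3 differences of -0.15, 2.81 and 4.72 gave an interaction adjusted p of 4.68e-09. OLR1, the receptor for oxidised LDL, read 4.60 and 4.66 against 3.98 and 4.01, 7.81 and 7.81 against 3.67 and 3.82 and 9.15 and 9.28 against 4.13 and 4.48 in the same order. CXCL10, a chemokine for T cells, differed by 0.25 (not called), 1.59 and 4.02, with every supernatant, medium and live NCFM array below the floor of the filter, so that these values are measured against background. The tryptophan enzyme KYNU differed by 0.01 (not called), 2.12 and 3.75. LRG1, an acute phase glycoprotein, and CEACAM7, an adhesion molecule of colonic epithelium, were lower with live NCFM (-0.84 and -1.0) but higher with live B. lactis 420 (1.98 and 2.40) and Ls-33 (3.87 and 3.50).

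ICAM1, the adhesion molecule that binds leukocyte integrins, reversed in the same way. It read 6.0 and 6.05 with live NCFM against 7.32 and 7.36 with its supernatant, 7.80 and 7.87 against 6.98 and 7.03 with B. lactis 420 and 9.17 and 9.24 against 7.37 and 7.27 with Ls-33, with 7.35 and 7.35 in medium. Live NCFM lay below medium and live Ls-33 above it, and the differences were -1.31 ± 0.104 (SE, adjusted p = 2.65e-08), 0.83 ± 0.104 (SE, adjusted p = 6.56e-06) and 1.88 ± 0.104 (SE, adjusted p = 1.72e-10). The average over strains was 0.47, and -0.24 without Ls-33. In all, 85 genes were called in opposite directions by 2 strains, and 76 of them were called for the interaction. EGLN3, a HIF prolyl hydroxylase, ran the other way in size, at 4.58 and 4.30 with live NCFM against 7.94 and 7.76, 6.07 and 5.94 against 7.52 and 7.85 with B. lactis 420 and 7.18 and 7.18 against 7.73 and 7.49 with Ls-33. It was lower with every strain, with differences of -3.41, -1.68 and -0.43. The methyltransferase gene NNMT was higher with Ls-33 (2.65) and B. lactis 420 (0.72) and was not called with NCFM (-0.48).

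**Figure D4:**
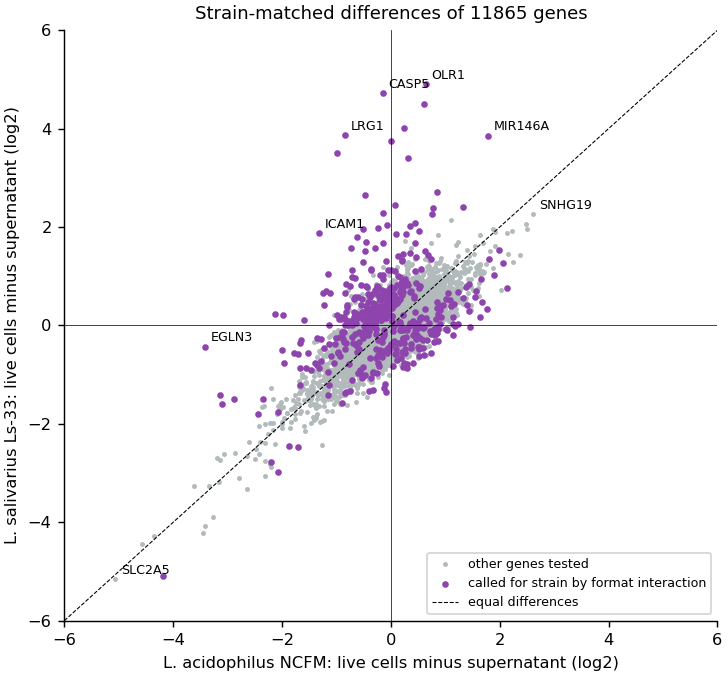
Each point is a gene, with its log2 difference between live cells and supernatant for NCFM on the x axis and for Ls-33 on the y axis, and genes called for the interaction of strain and format are purple. Most genes follow the dashed line of equal differences, SLC2A5 and SNHG19 among them, and CASP5, OLR1, LRG1 and ICAM1 lie far above it.

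**Figure D5:**
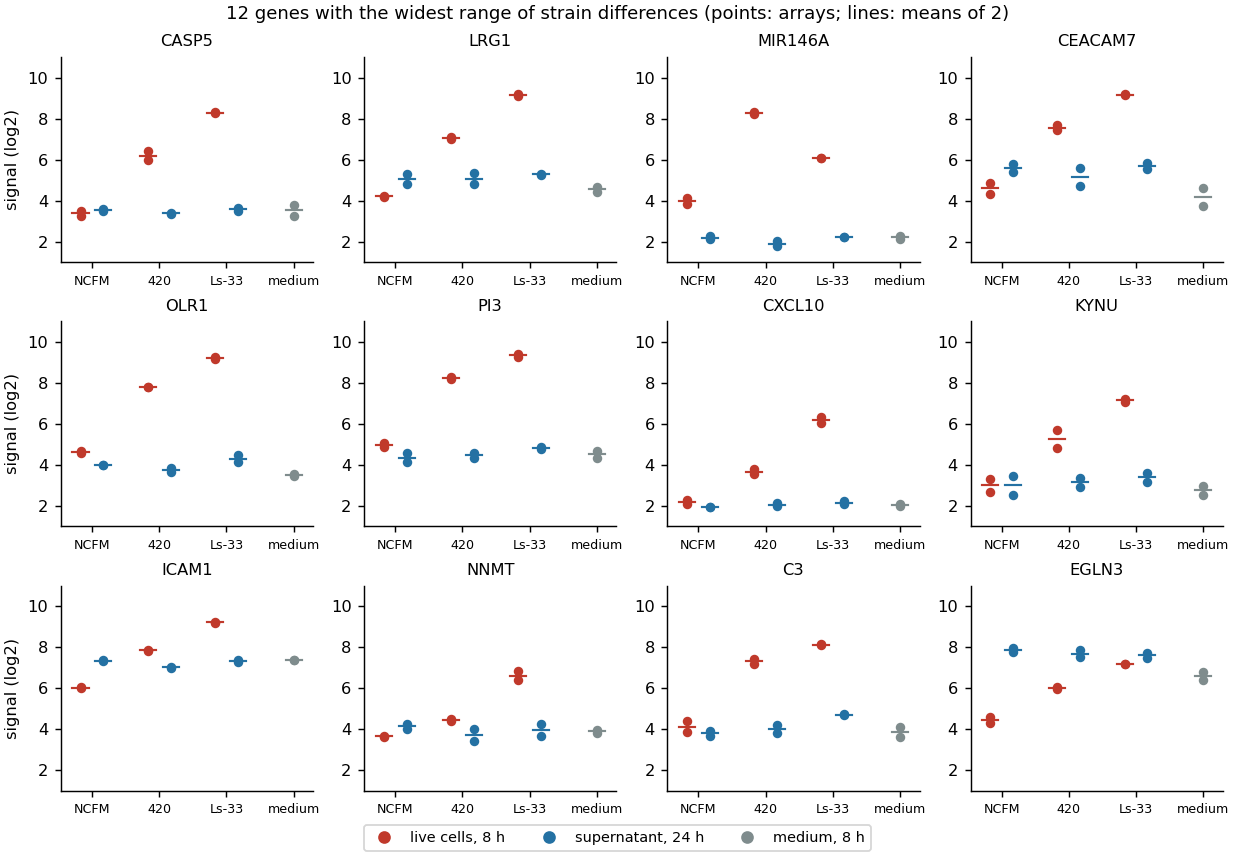
Panels show log2 signal in every array (points) and group means (lines) for the 12 genes called for the interaction whose strain differences were farthest apart, with live cells (red) left of supernatant (blue) for each strain and 8 h medium (grey) at the right. Live-cell values fan out by strain, whereas supernatants of the 3 strains lie near one another.

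Few genes separated the strains by their supernatants. A moderated F-test among the 3 live-cell groups, added after the values were seen, called 1581 genes (13.3%), and 763 and 863 when the first or second live Ls-33 array was left out. Among the 3 supernatant groups it called 4 genes (0.0337%), with 978 at an unadjusted p under 0.05, and 2 to 7 when single arrays were left out. Without a trend in eBayes it called 0 there, with 962 at an unadjusted p under 0.05, and 827 among live cells. The 4 genes were CCL20, NFKBIZ, CRIM1 and SUMF2. CCL20 averaged 9.11 ± 0.101 in NCFM, 9.57 ± 0.065 in B. lactis 420 and 10.04 ± 0.072 in Ls-33 supernatants (SD, n = 2 each, adjusted p = 2.69e-05 by limma). NFKBIZ averaged 8.27 ± 0.079, 8.61 ± 0.12 and 8.96 ± 0.024 in the same order (adjusted p = 0.00109 by limma). A p that misses the threshold does not show that the supernatants acted alike.

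Each strain also had genes that no other strain called in the same direction. For NCFM, the largest were the pseudogene transcript GOLGA2P5 (1.45), CALCOCO1 (1.44), RTKN2 (1.40) and HEPACAM2 (1.35) on the higher side. HEPACAM2 rested on 1 array, with 4.76 and 2.80 in live NCFM and 0.37, not called, without the first of them. On the lower side were ICAM1, the phosphatase gene PTPRE (-1.42), GK3 (-1.35) and CHPF (-1.28), which extends chondroitin chains. B. lactis 420 had ZNF204P (1.37), the kinase gene MAPK12 (1.33), the transcription factor HHEX (1.15) and the cell cycle phosphatase CDC25A (1.13) higher. It had PDZK1IP1 (-1.12), SHE (-1.03), F2RL2 (-0.93) and MFAP3L (-0.92) lower. Ls-33 had CD44 (1.69), a receptor for hyaluronan, the chromatin remodeller SMARCA2 (1.57), the dicarboxylate carrier SLC13A2 (1.45) and MPV17L2 (1.42) higher, and TRIQK (-1.33), RASGEF1A (-1.27), ARHGAP45 (-1.15) and IFITM10 (-1.10) lower. The interaction was called for GOLGA2P5, CALCOCO1, RTKN2, ICAM1, GK3, CD44, SMARCA2, SLC13A2, MPV17L2, TRIQK and RASGEF1A, and for none of the 8 named with B. lactis 420. Other probe sets are given here only as averages over strains. Those of CD44 (0.01, -0.12 and 0.13), SMARCA2 (-0.105), GOLGA2P5 (0.20 and 0.17), MAPK12 (-0.11), CDC25A (-0.08) and MFAP3L (-0.13) were not called. Those of HHEX (0.48) and TRIQK (-0.29 and -0.60) were called, and IFITM10 gave -0.32, called, and -0.01, uncalled.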

How the data were processed

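Caco-2 RNA was hybridised to Affymetrix HG-U133 Plus 2.0 arrays. The log2 signals of 54675 probe sets were used as the authors deposited them. Per the submitters' processing notes they were made with RMA, whose version is not given in the sources used here, nor whether the arrays were processed together. Probe sets were named through the platform annotation and RefSeq symbols of GRCh38.p14: 41091 had 1 symbol, and each of 19775 genes was read by 1 probe set, the brightest on average in the series, cross-hybridising designs (_x_at) last. Genes were kept at a mean over the 12 arrays of at least 2.743, the 40th percentile, which left 11865.

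Groups came from the sample titles. The model, fitted with limma 3.58.1 in R 4.3.3, held 6 groups of strain and format, with eBayes moderation along a trend on mean signal and 6 residual degrees of freedom. It gave each strain's difference, their average and the interaction of strain and format as a moderated F-test. Adjusted p-values are Benjamini-Hochberg over all genes, called under 0.05. The fit was tested on simulated data. The samples' number and not a depth limits precision on arrays. Same-numbered arrays did not deviate together (15 pairs of groups, r from -0.103 to 0.057), so the replicate number was not used as a block.

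The members and the 27 gene lists, with 706 of 795 genes named on the array and 620 tested, were chosen with earlier results of these data known. Genes named are the 12 largest differences each way without overlap, up to 4 members of a list with the lowest adjusted p, the 12 widest strain ranges, 4 each way called with 1 strain alone, and 13 named whatever their values. Members of small counts, and other list members, were chosen after their values were seen. The promoter share was counted over 250 bases upstream of each start. The alternatives tried were other filters, probe sets, normalizations, designs and left-out arrays.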

Additional observations from a re-analysis of the deposited data

Results flagged for a closer look

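The difference between live cells and supernatant of the same strain depended on the strain in 470 genes by the test of the interaction itself, and the named genes among them follow. The values below are the range of the 3 strain differences, highest minus lowest, on the log2 scale. No group had more than 2 arrays, so single arrays that stand apart were not looked for. Among chemokines, NF-kB targets and defence genes, the ranges were those of CCL20 (2.27), NFKBIZ (0.60), CXCL8 (2.44), CXCL10 (3.77), TNFAIP3 (2.01), NFKBIA (1.03), ICAM1 (3.19), PI3 (3.90), C3 (3.09), LRG1 (4.71), FGB (1.87), FGG (1.62) and IFI27 (1.38). Among other leading genes, the ranges were those of MIR146A (4.59), OLR1 (4.27), CASP5 (4.87), CEACAM7 (4.50), KYNU (3.74), NNMT (3.13), EGLN3 (2.97) and LGALS14 (0.92). Among absorptive and structural genes, the ranges were those of SLC3A1 (0.58), PDZK1 (0.91), CLDN1 (0.67), KRT8 (0.30), KRT18 (0.33) and AGR2 (0.28). Among stress, signalling and mitochondrial genes, the ranges were those of ERO1A (0.56), HERPUD1 (0.38), HSPA5 (0.28), TRIB3 (0.68), CYP1A1 (0.40), LUC7L3 (0.46), NDUFA2 (0.30), NDUFV2 (0.48), ID2 (0.33), PLAUR (1.19) and CDKN1A (0.64). Among genes that 1 strain alone called, the ranges were those of GOLGA2P5 (1.47), CALCOCO1 (1.14), RTKN2 (1.01), GK3 (1.22), CD44 (2.15), SMARCA2 (2.30), SLC13A2 (1.22), MPV17L2 (1.28), TRIQK (1.12) and RASGEF1A (1.15).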

How the results depend on the processing

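The 144 other recounts of called genes lay within 1.5 times the main count, and for the average of 3 strains, with 6634 genes, they ran from 5166 with a filter at the 60th percentile to 6900 without a filter, with 5591, 5671 and 5976 without B. lactis 420, Ls-33 or NCFM and 6166 in an additive design. With every probe set tested on its own, 11511 of 22052 were called. Without a trend in eBayes the interaction called 150 genes, the strains differed in 827 genes among live cells, and in 0 among supernatants by limma, with 962 at an unadjusted p under 0.05. The cause was not tested. With single arrays left out, the counts ran from 6160 to 6519 for the average, 3278 to 4356 for NCFM, 3314 to 4768 for B. lactis 420, 2675 to 4194 for Ls-33, 1684 to 2070 for all strains alike, 233 to 632 for the interaction, 763 to 1580 among live cells and 2 to 7 among supernatants, and the array left alone in its group was assumed to vary like the others.

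With the replicate block the counts were 6593 for the average, 4303, 4429 and 3834 for NCFM, B. lactis 420 and Ls-33, 2110 for all strains alike, 425 for the interaction, 1513 among live cells and 3 among supernatants, so it changed none by 1.5 times. The numbers do not pair these samples.

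Of the settings run on single named genes, 3679 kept direction and call, 24 lost the call and 17 reversed. Most reversals came from another probe set: GPATCH2L gave -0.18, -0.07 and -0.093 on 3 of 5 others, IDI1 -0.10 with the highest-mean probe set and -0.041 and -0.10 on others, CALR 0.36 with the highest-mean one and 0.36 and 0.45 on others, CSNK1D 0.15, COL1A1 -0.016 and -0.18, TJP1 -0.32 and PTGS2 -0.22. TJP1 was also -0.023 without B. lactis 420, and with single arrays left out it ran from -0.002 to 0.020. ICAM1 was -0.24 without Ls-33. Calls were lost on another probe set for HERPUD1 (-0.086), GCLC (-0.20), BUB3 (0.14), CCNB2 (-0.075), LUC7L3 (0.28), RPS9 (0.10) and OCLN (-0.15). ICAM1 lost its average in an additive design, and HEPACAM2 with NCFM lost its call without a trend and without single arrays. Of the list counts, 1159 stayed within 1.5 times and 83 did not, mostly counts under 10. Format and time share every array, 2 arrays a group limit the precision, and probe sets near the floor read background.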

Other observations

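Long noncoding RNAs, taken by their RefSeq class after the values were seen, differed in balance from protein-coding genes. Of 479 tested, 156 were higher with live cells (32.6%) and 71 lower (14.8%), against 30.5% and 25.9% of protein-coding genes, and 28 were higher and 5 lower by at least 2-fold. GABPB1-AS1 averaged 5.42 with live cells, against 3.82 with supernatants and 3.86 in medium, a difference of 1.60 ± 0.106 (SE, adjusted p = 6.4e-10 by limma). AFDN-DT differed by 1.57, MIR9-1HG by 1.499 and FTX, an activator of the X inactivation locus in mouse, by 1.42. On the lower side, LINC02139 averaged 2.23 against 3.62, a difference of -1.39, and LINC00857 3.89 against 5.15, a difference of -1.26. LINC02139 lay below the floor of the filter with live cells.

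Genes whose symbol starts with SLC, nearly all solute carriers, were also looked at after their values were seen. Of 249 tested, 78 were higher with live cells (31.3%) and 77 lower (30.9%), against 30.7% and 25.2% of all genes tested, with 5 and 15 by at least 2-fold. The higher share is about that of all genes. SLC6A4, the serotonin transporter, averaged 4.66 with live cells, against 7.39 with supernatants, a difference of -2.72 ± 0.103 (SE, adjusted p = 2.17e-13 by limma). The creatine carrier SLC6A8 differed by -2.47, the organic cation carrier SLC22A2 by -2.08, the iron importer SLC11A2 by -1.85 and the chloride and bicarbonate exchanger SLC26A3 by -1.61. The glutamate carrier SLC1A3 (1.30) and the mitochondrial iron importer SLC25A37 (1.15) were higher. Zinc finger genes with symbols starting ZNF showed 87 of 298 higher (29.2%) and 60 lower (20.1%), near the 30.7% and 25.2% over all genes tested.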
